A study of Mus musculus with 12 samples.

Results

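The genes described here are 39 mouse genes of double-stranded RNA sensing and the interferon response, taken by name from a table of 26061 genes. They comprise 6 sensors of foreign nucleic acid, 2 regulators that dampen the response, 6 signalling genes, 7 genes of the oligoadenylate synthetase (OAS) family, 14 other induced effectors and 4 genes of antigen processing. All 39 had a row, Ifi27 under the name Ifi27l1. Their RNA was measured by ribosomal-RNA-depleted sequencing in E14 cells, an embryonic stem cell line of 129/Ola background. The cells grew without feeders on gelatin, in serum medium with LIF, which the labels call primed, or in 2i medium, which replaces serum by N2 and B27 and holds LIF with PD0325901, an inhibitor of MEK, and CHIR99021, an inhibitor of GSK3. Each medium had a control group with a non-targeting shRNA (shScr) and a knockdown group with an shRNA against Setdb1, a histone H3K9 methyltransferase that silences endogenous retroviruses, with 3 libraries in each of the 4 groups. Cells of all 4 groups carried a lentiviral pLKO.1 vector and had been through 3 days of puromycin (1 µg/ml, added 48 h after infection), and none was left untransduced. No rescue of Setdb1 and no other shRNA against it was labelled, so effects of Setdb1 loss and of this shRNA cannot be told apart.

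In this pathway, viral or self double-stranded RNA is bound in the cytosol by the helicases RIG-I (Ddx58) and MDA5 (Ifih1), which signal through the mitochondrial adaptor MAVS to the transcription factor IRF3 and so switch on the genes of type I interferons. Secreted interferon acts through its receptor and JAK kinases on transcription factors that include STAT2 and IRF9, which bind the interferon-stimulated response element in the promoters of antiviral effector genes. Embryonic stem cells are known for a weak interferon response, and transcripts of derepressed endogenous retroviruses are among the known sources of self double-stranded RNA in other cells.

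After knockdown in 2i, 4 effector genes were higher and none of the sensors, signalling, OAS or antigen processing genes passed the test. Ube2l6, the conjugating enzyme that attaches the ubiquitin-like protein ISG15 to its targets, was 41.8-fold higher. Rtp4, an interferon-induced chaperone of membrane receptors, was at least 129.5-fold higher, the interferon-induced GTPase Mx2 at least 44.4-fold higher, and Bst2 (tetherin), which holds budding viruses at the cell surface, 11.9-fold higher. In serum none of the 39 genes passed. The medium alone had a different set: Xaf1, Oas1a and B2m were higher in 2i than in serum in control cells. Expression was tested with limma on variance-stabilised log2 values over the 14487 genes with a mean of at least 0.5 over the lowest value, 4.4522, 27 of the 39 among them, at a Benjamini-Hochberg adjusted p under 0.05. Rtp4 and Mx2 reached that mean only through the knockdown libraries in which they were high. With a stricter filter that leaves them out, 2 members passed in 2i, Bst2 and Ube2l6. Without any filter an OAS gene, Oas1b, passed in 2i and Bst2 did not. Per-library values below are normalised reads, that is, whole reads over the DESeq2 size factor of each library, in the order of replicates 1, 2 and 3, and folds are ratios of group means of normalised reads.

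The promoters of these genes are shown because the members that passed differed in whether they hold the response element. RefSeq windows of 300 bases on GRCm38.p6, from 250 bases before to 50 after a transcription start, were at hand for 30 of the 39 genes. The element was searched as GAAA, any 2 bases, then GAAA, on both strands, with overlapping matches counted, and it was present in 13 of the 30 genes (43.3%) against 3.99% of 27025 genes with a window. By role it was found in 3 of 4 sensors, 0 of 1 regulators, 1 of 6 signalling genes, 3 of 5 OAS genes, 5 of 10 effectors and 1 of 4 antigen processing genes. The gamma-activated site, searched as TTCNNNGAA on both strands, was present in 8 of the 30 (26.7%) against 9.55% of all genes with a window. The 150 bases before the start are printed 5′ to 3′ on the strand of the gene, with matches of the response element in capitals, for 5 of the 6 members with a window that passed a test, Irf9 having 2 windows without a match, and for Isg15, the ubiquitin-like modifier itself.
Bst2, chr8:71537473-71537622, minus strand: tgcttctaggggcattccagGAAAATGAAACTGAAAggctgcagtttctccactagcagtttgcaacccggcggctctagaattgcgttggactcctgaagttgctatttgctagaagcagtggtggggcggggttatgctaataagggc
Ube2l6, chr2:84798678-84798827, plus strand: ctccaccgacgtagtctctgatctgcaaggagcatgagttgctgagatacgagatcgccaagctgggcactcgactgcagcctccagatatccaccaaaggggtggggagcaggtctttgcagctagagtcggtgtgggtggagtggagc
Isg15, chr4:156200819-156200968, minus strand: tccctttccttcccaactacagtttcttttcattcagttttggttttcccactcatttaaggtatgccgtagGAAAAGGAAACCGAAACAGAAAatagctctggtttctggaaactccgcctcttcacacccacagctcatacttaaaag
Oas1a, chr5:120907526-120907675, minus strand: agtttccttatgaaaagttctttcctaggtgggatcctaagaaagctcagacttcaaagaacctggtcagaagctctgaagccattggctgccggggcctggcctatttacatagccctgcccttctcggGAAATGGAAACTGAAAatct
B2m, chr2:122147537-122147686, plus strand: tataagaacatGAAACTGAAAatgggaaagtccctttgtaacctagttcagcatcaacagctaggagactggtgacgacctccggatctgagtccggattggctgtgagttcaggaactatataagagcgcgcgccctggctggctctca
Xaf1, chr11:72301479-72301628, plus strand: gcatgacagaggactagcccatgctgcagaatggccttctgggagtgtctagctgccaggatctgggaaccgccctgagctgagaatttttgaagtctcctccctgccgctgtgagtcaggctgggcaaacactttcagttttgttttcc

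Bst2 held 2 overlapping matches that began 130 and 124 bases before the start, and Oas1a held 2 that began 20 and 14 bases before it. Isg15 held 3 overlapping matches between 78 and 66 bases before the start, and B2m a single match 139 bases before it. Ube2l6 and Xaf1 had no match in the window. Rtp4 and Mx2 had no window at hand, nor had Ifi27, Usp18, Oas1b, Oas2, Dhx58, Zbp1 and Mx1. A match is a run of letters and was not tested as a binding site.

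Setdb1 itself was 5.62-fold lower after knockdown in serum and 4.8-fold lower in 2i (limma adjusted p = 0.00219 and 0.00173). It ranged from 1587 to 2959 normalised reads in the serum control, 379 to 418 in the serum knockdown, 2254 to 3607 in 2i controls and 340.1 to 837 after 2i knockdown. Libraries held 4821181 to 15509401 gene reads, with 2i knockdown replicate 3 the shallowest. All 10 embryonic stem cell markers searched, Pou5f1, Nanog and Sox2 among them, were detected in every group. Of 10 macrophage and leukocyte markers, cells in which these genes are strongly induced, Lyz2 and Tyrobp had 0 reads in all 12 libraries, and the summed level of the 10 was 63.5 to 153 normalised reads in 2i controls and 57.9 to 160.4 after 2i knockdown. Cd14 and Emr1 had reads in the 2i knockdown alone. Ptprc had 0 reads only in the 2i control, Csf1r only in the serum control, and Fcer1g in both knockdown groups. Of 10 fibroblast markers, Col3a1 and Dcn had reads in the 2i knockdown alone, where none of the 10 was at 0. The sum of the 10 was 67.2 to 91.0 in the 2i control against 169.5 to 828.5 in the 2i knockdown. Without Lum, which itself passed in 2i, the other 9 summed to 67.2 to 88.3 and 47.0 to 93.0. The 10 endoderm markers searched summed to more, 1155 to 1613 normalised reads in the 2i control and 456.3 to 1466 in the 2i knockdown. In serum they summed to 1215 to 1723 in the control and 354.7 to 1542 in the knockdown. The part of other cells in the results was not tested. Structural RNA repeats, which include small nuclear RNAs, made up 19.8, 55.4 and 69.3% of repeat reads in the 2i knockdown against 31.8, 38.7 and 64.3% in the 2i control, a wide spread within each group. In bulk RNA, more cells that express a gene and more RNA per cell cannot be told apart.

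Among the sensors, Ddx58 (RIG-I) and Eif2ak2 (PKR, a kinase that halts translation when it binds double-stranded RNA) were abundant in every library, while the others were near the limit of detection. Ddx58 had 1169, 609 and 159 normalised reads in serum controls and 1602, 483 and 174 after serum knockdown. It had 925, 512 and 217 in 2i controls and 1582, 378 and 260 after 2i knockdown. In each of the 4 groups replicate 1 was the highest and replicate 3 the lowest, so its spread lay between replicate numbers and the groups overlapped fully. It did not pass in either medium.

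Eif2ak2 ranged from 385 to 603 normalised reads in the serum control, 409 to 423 in the serum knockdown, 418 to 770 in 2i controls and 501 to 1091 after 2i knockdown. Its log2 change was −0.13 ± 0.32 (SE, as for all log2 changes here) in serum and 0.29 ± 0.32 in 2i, both of which turned in sign when a single library was left out (0.05 without serum control replicate 1 and −0.01 without 2i knockdown replicate 1). Zbp1, a sensor of Z-form nucleic acid, had no more than 36.0 normalised reads in any library and a log2 change of 0.56 ± 0.47 in 2i. Dhx58 (LGP2), a helicase that modulates RIG-I and MDA5 signalling, had 0, 21.9 and 6.71 normalised reads in the serum knockdown against 0, 1.78 and 0 in its control, a log2 change of 0.59 ± 0.40. None of these 4 sensors passed in either medium, and their median log2 change was 0.09 in serum and 0.24 in 2i. Ifih1 (MDA5) had 38 reads over all 12 libraries and the endosomal sensor Tlr3 had 34, too few for the filter.

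Adar, the deaminase that edits double-stranded RNA and keeps self RNA from being sensed, was detected in all 12 libraries. It had 277, 282 and 257 normalised reads in serum controls and 361, 435 and 295 after serum knockdown. Every serum knockdown library thus lay above every serum control library, a 1.34-fold difference that did not pass (log2 0.36 ± 0.30, limma adjusted p = 1). In 2i the change was 0.03 ± 0.30 and its sign depended on the setting: it was −0.02 with libraries centred on their medians, −0.01 with quantile normalisation, −0.26 with array weights, and −0.04, −0.11 and −0.18 without 2i control replicate 1, 2i control replicate 3 or 2i knockdown replicate 1. Usp18, the protease that removes ISG15 from proteins and blocks the interferon receptor, behaved differently among the 2i knockdown libraries, with 76.9, 0 and 205 normalised reads against 0 in all 3 controls. It was high in replicates 1 and 3 and undetected in replicate 2, and did not pass (log2 1.97 ± 0.61, limma adjusted p = 0.232). Without 2i knockdown replicate 2 the adjusted p was 0.00149. In serum Usp18 had 0, 8.88 and 0 in the control and 0, 0 and 0.959 in the knockdown.

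**Figure D1:**
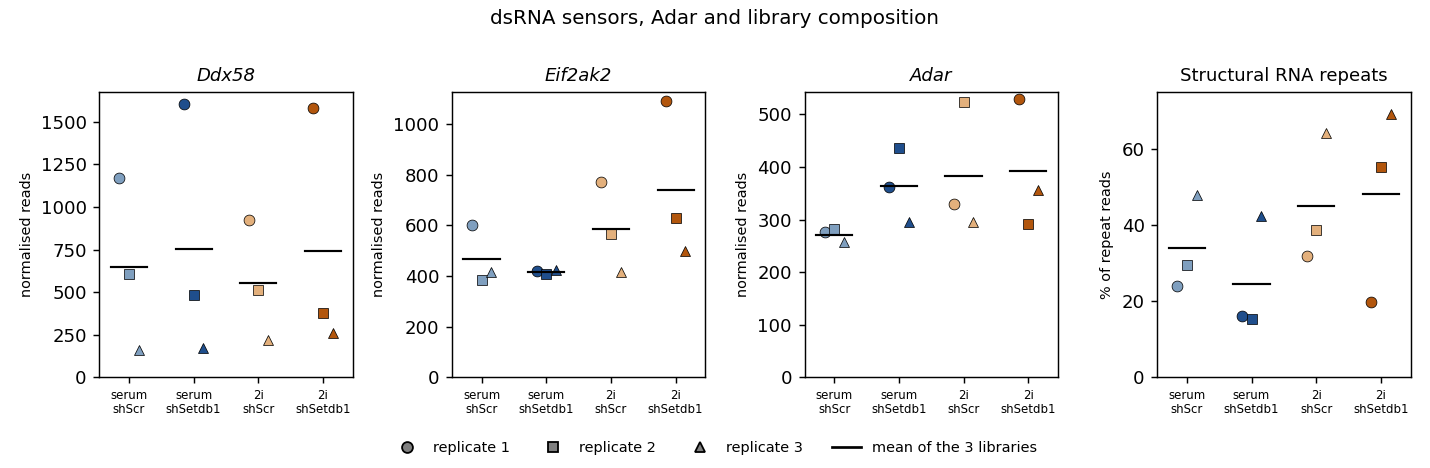
Normalised reads of Ddx58, Eif2ak2 and Adar (linear axes from 0) and the share of repeat reads from structural RNA repeats (percent), by group, with symbols for replicates 1, 2 and 3 and a line at the mean of 3 libraries. Replicate 1 is the highest and replicate 3 the lowest library for Ddx58 in all 4 groups, while replicate 3 has the highest structural RNA share in all 4.

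Among the 5 signalling genes tested only Mavs had groups that did not overlap in 2i, and it was lower. Mavs had 172, 217 and 232 normalised reads in 2i controls and 90.7, 83.2 and 74.7 after 2i knockdown. The knockdown level was 2.50-fold lower, a difference that did not pass (log2 −1.01 ± 0.30, limma adjusted p = 0.173). In serum it had 77.1, 54.2 and 109 in the control and 60.9, 85.1 and 99.7 in the knockdown, so the 2i control libraries stood alone above the other 9.

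Irf9, the DNA-binding part of the interferon-activated complex, had 267, 205.5 and 353 normalised reads in 2i controls and 484, 334 and 678 after 2i knockdown. The groups overlapped and the log2 change of 0.75 ± 0.30 did not pass (limma adjusted p = 0.534). Its partner Stat2 ranged from 43.4 to 153 normalised reads in the 2i control and from 70.1 to 227 in the 2i knockdown, with overlap. In serum its log2 change was 0.54 ± 0.46. Irf1, a factor also induced by interferon gamma, had 188, 370 and 158 in serum controls and 272, 682 and 129 after serum knockdown, so replicate 2 was the highest in both. Its log2 change of 0.35 ± 0.44 in serum became −0.20 without serum knockdown replicate 2. Irf3, the factor that MAVS signalling activates, ranged from 56.3 to 174 over all 12 libraries, with overlap in both media. Irf7, which amplifies interferon production and is itself interferon-induced, was singled out after its values were seen. It had 0 reads in 9 libraries and 14.6, 2.03 and 58.1 normalised reads in the 2i knockdown, at least 30.6-fold higher than the 2i control and at least 10.2-fold without replicate 3, but was too low for the filter. Tested without the filter it had a log2 change of 1.24 with limma adjusted p = 0.0852. The 5 signalling genes tested had a median log2 change of 0.10 in serum and 0.37 in 2i.

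The OAS family holds enzymes that double-stranded RNA activates to make a second messenger for the nuclease RNase L, and relatives without that activity. Oas2 had 8.67, 11.03 and 12.9 normalised reads in 2i controls and 26.9, 24.4 and 177 after 2i knockdown. Oasl1 had 1.44, 6.90 and 11.7 against 25.4, 22.3 and 91.3. In both genes every knockdown library lay above every control library, and in both replicate 3 was far above replicates 1 and 2. The folds were 6.999 for Oas2, 2.36 without 2i knockdown replicate 3, and 6.92 for Oasl1, 3.56 without it and 11.1 without 2i control replicate 3. Neither passed (log2 1.11 ± 0.43, limma adjusted p = 0.464, and log2 1.09 ± 0.41, limma adjusted p = 0.445).

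Oas1c had 22.3, 57.9 and 85.7 normalised reads in the 2i knockdown against 8.67, 28.3 and 29.3 in the control, and the groups overlapped. Oas3 had a log2 change of 0.38 ± 0.39 in serum and no more than 19.25 normalised reads in any library. Oas1b, named after its values were seen, had 0 reads in the 2i control and 8.46, 16.2 and 16.6 normalised reads in the 2i knockdown, at least 16.9-fold higher. It did not reach the filter and, tested without it, had a log2 change of 1.10 with limma adjusted p = 0.0183. Oasl2 had 55 reads over all 12 libraries. Of the 5 OAS genes tested, 4 had a positive log2 change in 2i and 2 in serum, with medians of 0.67 and −0.17. The Oas1 genes are similar copies in a cluster, so reads may be shared between them.

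Among the genes tested, the effectors held every knockdown change that passed. This depended on the filter: without it Oas1b passed in 2i and Bst2 did not (limma adjusted p = 0.0183 and 0.0565). Rtp4 had 0 reads in all 9 libraries of the other groups and 68.4, 26.4 and 221 normalised reads in the 2i knockdown. It was thus detected in a single group, in all 3 of its libraries, at least 129.5-fold above the 2i control and at least 58.25-fold without replicate 3 (log2 2.47 ± 0.40, limma adjusted p = 0.00414). Fitted on only the 2i libraries, Rtp4 did not pass (limma adjusted p = 0.0835). Mx2 had 0 reads in both control groups, 2.28, 10.1 and 2.88 normalised reads in the serum knockdown and 7.69, 23.4 and 77.4 in the 2i knockdown. It was detected in all 6 knockdown libraries and in none of the 6 controls, at least 5.06-fold higher in serum (2.56-fold without serum knockdown replicate 2) and at least 44.4-fold higher in 2i (log2 1.56 ± 0.36, limma adjusted p = 0.0436). That call was lost in 11 of 12 refits that left out a library, all but that without 2i knockdown replicate 1, with adjusted p from 0.0579 to 0.167, and the bound fell to 19.1-fold without 2i knockdown replicate 3. Rtp4 and Mx2 passed the filter on low values through the libraries in which they were high.

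Ube2l6 was the most strongly changed effector with reads in every library. It had 2.17, 6.90 and 11.7 normalised reads in 2i controls and 311, 134 and 423 after 2i knockdown. The lowest knockdown library was far above the highest control (log2 3.05 ± 0.47, limma adjusted p = 0.0027), and the 41.8-fold rise ranged from 31.1 to 63.9 when each library was left out, highest without 2i control replicate 3. In serum it had 11.9, 32.0 and 4.28 in the control and 41.8, 21.9 and 157 in the knockdown, groups that overlapped (4.58-fold, log2 1.04 ± 0.47, limma adjusted p = 0.943). That fold was 1.98 without serum knockdown replicate 3 and 9.08 without serum control replicate 2.

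Bst2 was the only one of the 4 that was well expressed in a control group. It had 63.0, 57.8 and 109 normalised reads in serum controls and 163.5, 113 and 270.4 after serum knockdown. It had 11.6, 15.2 and 19.9 in 2i controls and 107, 87.3 and 359.5 after 2i knockdown. Knockdown libraries were above control libraries in both media without overlap, 2.38-fold in serum (log2 0.91 ± 0.42, limma adjusted p = 0.948) and 11.9-fold in 2i (log2 1.99 ± 0.42, limma adjusted p = 0.0263). The mean after knockdown was 182 ± 80.4 in serum and 184.5 ± 152 in 2i, and in controls it was 76.6 ± 28.2 and 15.6 ± 4.21 (SD, n = 3). The fold in 2i was 6.24 without knockdown replicate 3, when the adjusted p was 0.11, and the call was also lost without 2i control replicate 1 (0.13), 2 (0.0994) or 3 (0.0679).

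**Figure D2:**
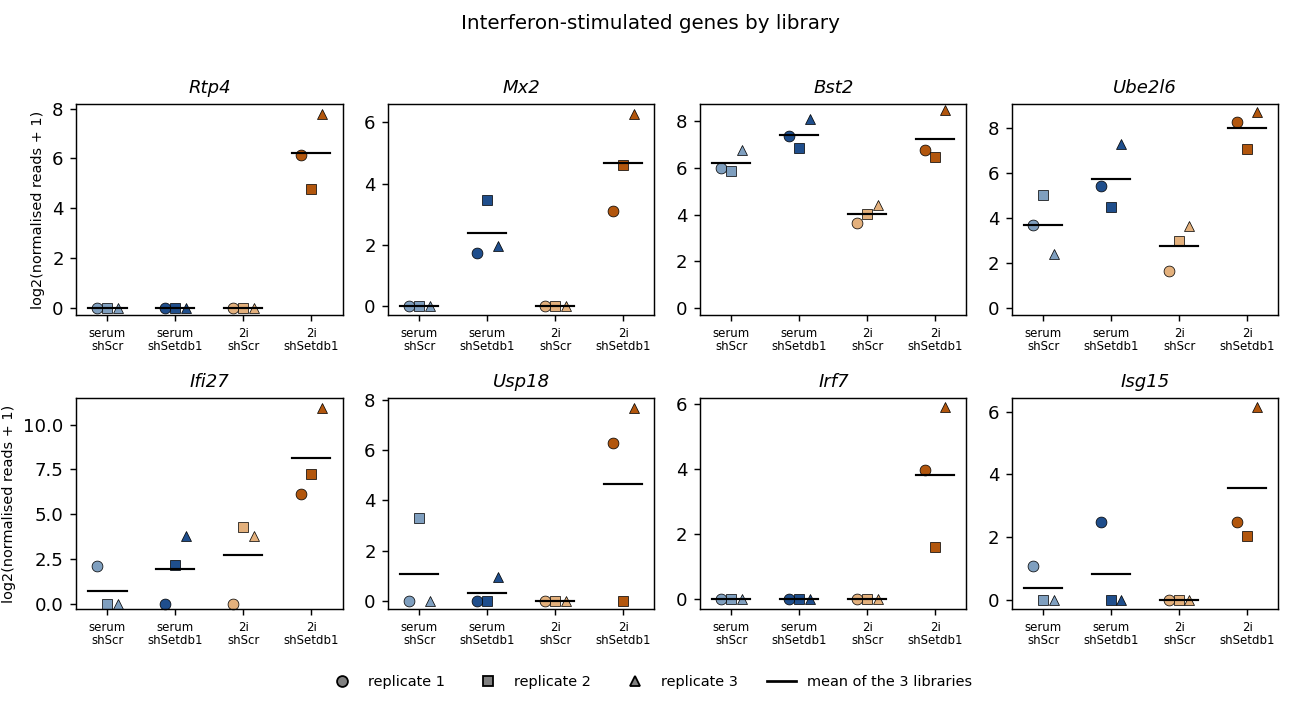
Values of 8 induced genes on a log scale, log2(normalised reads + 1), by group, with symbols for replicates 1, 2 and 3 and a line at the mean of the plotted log2 values. Rtp4 and Irf7 have reads only in the 2i knockdown, Mx2 in both knockdown groups, and 2i knockdown replicate 3 is the highest library of its group in all 8 panels.

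Ifi27 and Isg15 were higher without passing. Ifi27, a small mitochondrial protein strongly induced by type I interferon, had 0, 18.6 and 12.9 normalised reads in 2i controls and 69.2, 150 and 1969 after 2i knockdown. Every knockdown library lay above every control, yet replicate 3 alone held most of the reads: the fold was 69.4 with it and 10.4 without, and 113 without 2i control replicate 2. The change did not pass (log2 3.20 ± 0.76, limma adjusted p = 0.0576), whereas it did without 2i knockdown replicate 1 (0.00426). Isg15, singled out after its values were seen, had 0 reads in the 2i control and 4.61, 3.05 and 69.1 normalised reads in the 2i knockdown, at least 31.5-fold higher, and at least 4.705-fold without replicate 3. It was below the filter and, tested without it, had a log2 change of 1.17 with limma adjusted p = 0.285. Thus the modifier was at most a few normalised reads in 2 of the 3 libraries in which its conjugating enzyme Ube2l6 reached 134 or more.

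Not all effectors were higher. Xaf1, an interferon-inducible binding partner of the apoptosis inhibitor XIAP, had 153, 207 and 299 normalised reads in serum controls and 38.0, 110 and 111 after serum knockdown. All knockdown libraries were below all controls, 2.54-fold in the mean, which did not pass (log2 −1.09 ± 0.36, limma adjusted p = 0.453). In 2i it had 1232, 691 and 1192 in the control and 504, 561 and 866 in the knockdown, a log2 change of −0.65 ± 0.36. Ifit2, which binds viral RNA and blocks its translation, had 32.6, 75.5 and 56.7 normalised reads in serum controls against 35.8, 26.9 and 14.4 after knockdown, and Ifi35 ranged from 58.6 to 115.5 in the 2i control and from 68.0 to 235 in the 2i knockdown, with overlap in both. The classical effectors Ifit1, Ifit3, Mx1 and Rsad2 had between 5 and 56 reads each over all 12 libraries, and Ifi44 had none. Among the 8 effectors tested the median log2 change was 0.34 in serum and 1.78 in 2i. These 8 include Rtp4 and Mx2, which reached the filter through the libraries in which they were high, and leave out the effectors below it. The medians are thus a description.

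Of the antigen processing genes, none passed after knockdown. Tap1, a subunit of the peptide transporter that loads MHC class I, had 71.6, 36.4 and 78.0 normalised reads in serum controls and 106, 108 and 124 after serum knockdown. It had 10.1, 9.65 and 43.4 in 2i controls and 69.9, 39.6 and 102 after 2i knockdown. The groups did not overlap in serum and overlapped in 2i, with log2 changes of 0.63 ± 0.36 and 1.02 ± 0.36 (limma adjusted p = 1 and 0.362). Psmb9, an immunoproteasome subunit, reached at most 44.25 normalised reads, with log2 changes of 0.25 ± 0.42 in serum and 0.65 ± 0.42 in 2i. B2m, the light chain of MHC class I, was abundant in all groups, and knockdown and control overlapped in both media. Psmb8 had 67 reads over all 12 libraries.

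**Figure D3:**
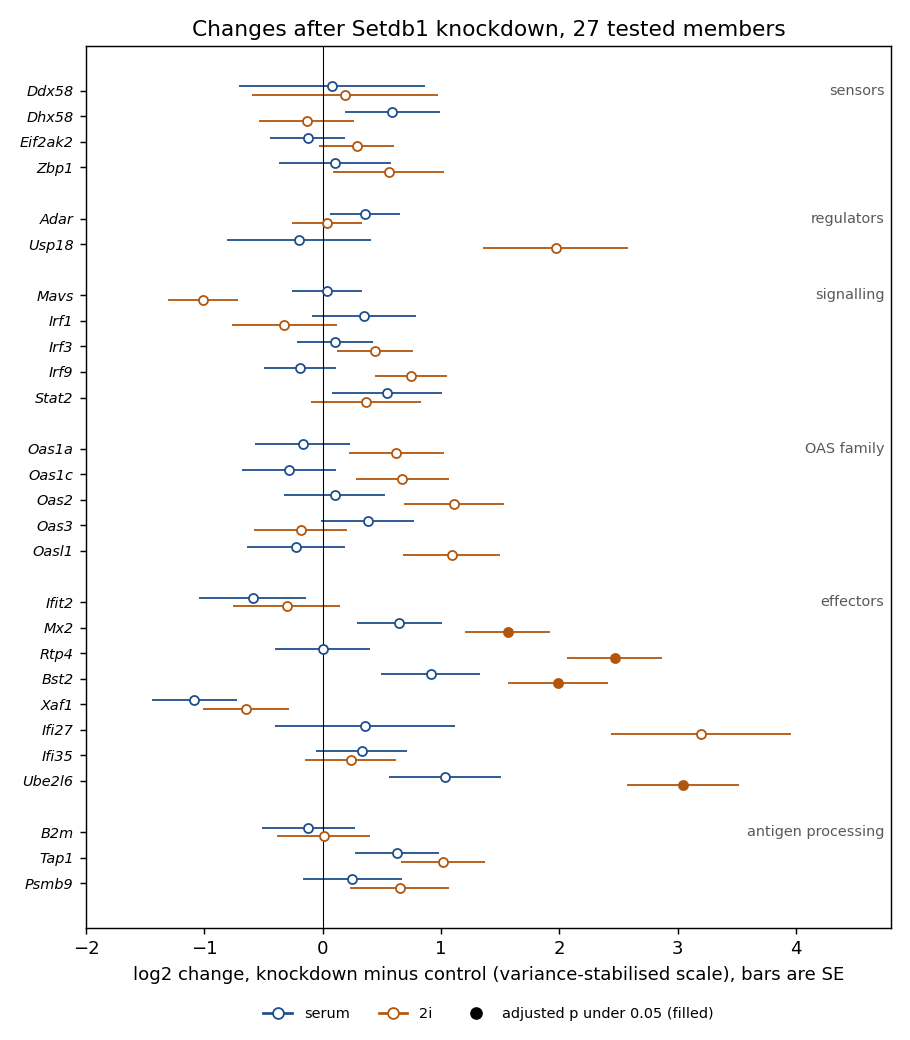
Log2 change after knockdown with its SE (limma, variance-stabilised scale) for the 27 tested members, grouped by role, in serum (blue) and 2i (orange), with filled symbols at an adjusted p under 0.05. The 4 filled symbols are all effectors in 2i: Ube2l6, Rtp4, Bst2 and Mx2.

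Read over the 39 genes, 4 of the 27 tested passed in 2i, all higher, where 1.27% of all genes tested passed, 1.21% higher and 0.0552% lower. That count was 2 without any 1 of the 2i control libraries or without 2i knockdown replicate 3. In serum 0 of 27 passed where 0.649% of all genes did, 0.601% higher and 0.0483% lower. In serum 3 of 27 members had an unadjusted p under 0.05, where 5.09% of all genes did, and voom on the recovered reads also called 0. Their median log2 change was 0.56 in 2i and 0.10 in serum, against 0.0121 and −0.0015 over all genes tested. Libraries of knockdown and control did not overlap for 7 higher members (25.9%) and 1 lower member (3.7%) in 2i, where 6.33% and 4.33% of all genes tested did so. In serum they did not overlap for 4 higher members (Adar, Mx2, Bst2 and Tap1) and 1 lower (Xaf1), where the shares over all genes were 6.12% and 3.59%. These counts and medians include Rtp4, Mx2 and Usp18, which reached the filter mainly through the 2i knockdown, so they are a description.

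Whether the response differed between media was tested directly as the difference of the knockdown changes, 2i minus serum. No member passed and 0% of all genes did. With limma 7 members had an unadjusted p under 0.05, 6 with a positive difference and Mavs with a negative one, where 2.79% of all genes had one, and voom on the recovered reads called 0 members. The 6 include Rtp4 and Usp18, which reached the filter mainly through the 2i knockdown, so the count is a description. The differences were 2.47 ± 0.57 for Rtp4, 2.01 ± 0.67 for Ube2l6, 2.84 ± 1.08 for Ifi27, 1.08 ± 0.59 for Bst2 and 0.92 ± 0.51 for Mx2 (limma adjusted p = 0.9996 for each). A stronger knockdown response in 2i was thus not shown by the test. When the change was averaged over both media, the same 4 effectors passed (4 of 27 higher, where 1.89% of all genes passed, 1.76% higher): Ube2l6 at 2.04 (limma adjusted p = 0.00261), Bst2 at 1.45 (0.0147), Mx2 at 1.11 (0.0317) and Rtp4 at 1.23 (0.0336). Of these, Rtp4 and Mx2 were among the genes tested only through the groups in which they were high, so the count is a description, and it was 2 with a stricter filter that leaves them out. The call of Mx2 was lost in 10 and that of Rtp4 in 9 of 12 refits without a library, with adjusted p from 0.0526 to 0.113 and from 0.071 to 0.0914.

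The height of the 2i response varied among its 3 libraries. Replicate 3 of the 2i knockdown was the highest of its group for 24 of the 38 members with a read there (63.2%), and for 18 of the 27 tested (66.7%), against 34.3% of all genes tested. Replicate 3 was also most often the highest for tested members in the other groups. The shares were 48.0% in the serum control (40.1% of all genes), 57.7% in the serum knockdown (39.4%) and 45.8% in the 2i control (35.1%). Replicate 3 of the 2i knockdown was also the shallowest library and the one with the highest structural RNA share, 69.3% of repeat reads. The share of IAPEz-int, the internal part of an endogenous retrovirus family silenced by SETDB1, was 2.91, 2.13 and 1.80% of repeat reads in the 2i knockdown, 0.226, 0.346 and 0.119% in its control, 0.656, 0.621 and 1.06% in the serum knockdown and 0.23, 0.217 and 0.144% in the serum control. Unlike IAPEz-int, MMERVK10C-int and MMERGLN-int had lower shares in the 2i than in the serum knockdown at each replicate number. MMERVK10C-int made up 1.071, 0.812 and 0.401% in the serum knockdown and 0.497, 0.067 and 0.067% in the 2i knockdown. MMERGLN-int made up 1.259, 2.497 and 0.498% in the serum knockdown and 1.245, 0.328 and 0.259% in the 2i knockdown. The part of depth, composition or retrovirus RNA in the members' levels was not tested.

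In control cells, 3 of 27 members were higher in 2i than in serum and none lower, where 3.62% of all genes passed, 1.73% higher and 1.88% lower. Xaf1 was 4.72-fold higher in 2i, with no overlap among the library values given above (log2 2.04 ± 0.36, limma adjusted p = 0.00577). Oas1a, an RNase L pathway synthetase, had 72.7, 120 and 44.9 normalised reads in serum controls and 362.5, 236 and 419 in 2i controls, 4.28-fold higher (log2 1.71 ± 0.40, limma adjusted p = 0.0296). B2m had 60.8, 120 and 254.5 in serum controls and 501, 428 and 630.3 in 2i controls, 3.58-fold higher and 5.75-fold without serum control replicate 3 (log2 1.73 ± 0.39, limma adjusted p = 0.0249). For all 3 genes every 2i control library exceeded every serum control library. Leaving out a library lost the call of Oas1a in 5 of 12 refits, those without any serum control library or without 2i control replicate 1 or 3 (adjusted p 0.052 to 0.136). It lost that of B2m in 5, those without serum control replicate 1 or 2 or any 2i control library (0.057 to 0.118), and that of Xaf1 in none.

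Several other members differed between media in control cells without passing. Mavs was 2.59-fold higher in 2i (log2 1.08 ± 0.30, limma adjusted p = 0.0588) and Ifi35, an interferon-induced leucine zipper protein, 4.78-fold higher (log2 1.28 ± 0.38, limma adjusted p = 0.0812). Mavs passed without serum control replicate 3 (adjusted p = 0.049) and Ifi35 without 2i knockdown replicate 3 (0.0326). In the other direction Bst2 was 4.92-fold lower in 2i (log2 −1.20 ± 0.42, limma adjusted p = 0.133), and Ifit2 was 4.84-fold lower (3.23-fold without 2i control replicate 3 and 7.96-fold without replicate 1), with 20.2, 13.8 and 0 normalised reads in 2i. In all, 8 of 27 members were higher and 2 lower without overlap, where 11% and 12.8% of all genes tested were. The members' median difference was 0.20 against −0.05 over all genes, with 16 of 27 above 0.

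In Setdb1-depleted cells, 6 of 27 members were higher in 2i than in serum and none lower, where 3.75% of all genes passed, 2.15% higher and 1.6% lower. Without 2i knockdown replicate 1 the count was 11, 10 higher and 1 lower (Ifit2), where 1522 of all genes passed, against 543 as reported. Both counts include Rtp4, which was among the genes tested only through the 2i knockdown. Xaf1 (7.44-fold, log2 2.48 ± 0.36, limma adjusted p = 0.0021) and B2m (4.59-fold, log2 1.86 ± 0.39, limma adjusted p = 0.0166) were again among them. Oas1a had 41.8, 64.0 and 88.2 normalised reads in the serum knockdown and 390, 358 and 1054 in the 2i knockdown, 9.29-fold higher and 5.78-fold without 2i knockdown replicate 3 (log2 2.50 ± 0.40, limma adjusted p = 0.00387). Irf9 had 119, 154 and 129 in the serum knockdown, and its 2i knockdown level was 3.72-fold higher (log2 1.58 ± 0.30, limma adjusted p = 0.00945). Rtp4 (log2 2.47 ± 0.40, limma adjusted p = 0.00411) and Ifi27 (log2 3.45 ± 0.76, limma adjusted p = 0.0212) completed the set, Ifi27 with 0, 3.37 and 12.5 normalised reads in the serum knockdown. For all 6 genes the groups did not overlap. Ifi27 lost its call without serum knockdown replicate 1 (0.0785) or 2 (0.0925), and B2m without serum knockdown replicate 1, 2 or 2i knockdown replicate 3 (0.0717 to 0.0845). Without overlap 10 members were higher and 1, Tap1, was lower, where 8.99% and 10.1% of all genes were. This comparison shares its libraries with the knockdown comparisons, so its values are not separate evidence of the same changes.

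**Figure D4:**
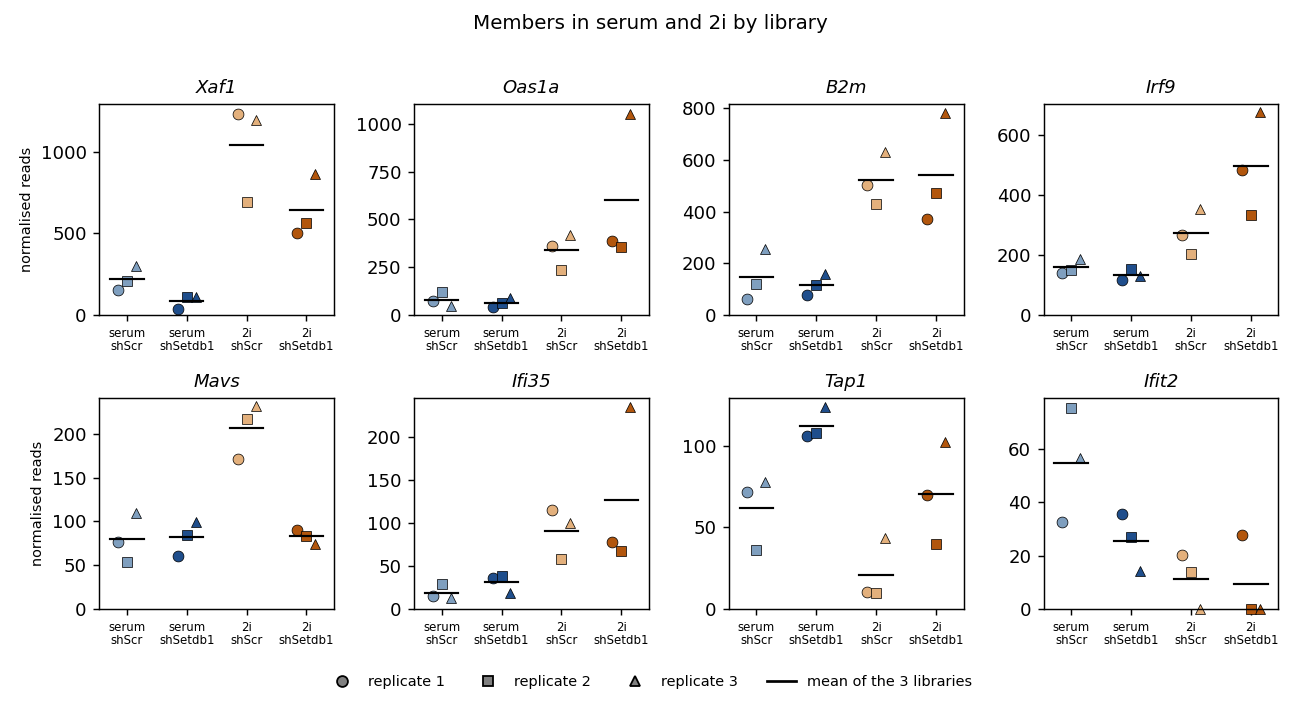
Normalised reads (linear axes from 0) of 8 members by group, with symbols for replicates 1, 2 and 3 and a line at the mean of 3 libraries. Xaf1, Oas1a and B2m are higher in all 6 libraries of 2i than in all 6 of serum, Mavs is highest in the 2i control, and Ifit2 has its highest mean in the serum control.

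Levels were compared between genes per kilobase of GENCODE M21 exon. B2m led in the serum control with 169 ± 115 normalised reads per kilobase (SD, n = 3), followed by Ddx58 at 91.6 ± 71.8, Eif2ak2 at 91.4 ± 23.1 and Bst2 at 84.8 ± 31.3, neighbours that did not differ beyond their spread. In the 2i control B2m stood at 604.5 ± 119, above Xaf1 at 221.5 ± 64.3 and Oas1a at 180 ± 49.8, and Bst2 had dropped to 17.2 ± 4.67. In the 2i knockdown the order was B2m at 629 ± 248, Ifi27 at 497 ± 732, Oas1a at 319 ± 208, Bst2 at 204 ± 168 and Ube2l6 at 145 ± 73.0. The spreads of neighbours in this order overlapped, while those of B2m and Ube2l6 did not. The sensors Eif2ak2 and Ddx58 stood at 145 ± 60.8 and 105 ± 104 there. In the serum knockdown Bst2 came first at 202 ± 89.0, then B2m at 137 ± 48.3 and Ddx58 at 107 ± 107, which also overlapped.

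The wider pathway was described with 88 further genes of interferon production, signalling and response, of which 86 had a row and 63 were tested. The 7 interferon genes in that list, Ifnb1, Ifna1, Ifna2, Ifna4, Ifna5, Ifnk and Ifne, had 0 reads in all 12 libraries, which leaves room for up to 3 reads in total for each. The receptor gene Ifnar1 had 356 to 571 normalised reads in the serum control and 375 to 567 in the 2i knockdown, and it was detected in all 12 libraries. With limma none of the 63 passed after knockdown in serum or in 2i, where their medians were 0.02 and 0.20, and voom called 0. At an unadjusted p under 0.05 there were 4 in serum (6.35%, against 5.09% of all genes) and 12 in 2i (19%, against 7.37%). With the change averaged over both media 1 of 63 passed (1.59%), close to the 1.89% of all genes. It was Samd9l, an interferon-induced antiviral factor, at 2.76 ± 0.61 (limma adjusted p = 0.0246), a call lost in 5 of 12 refits without a library (serum knockdown replicate 1 or 2, 2i control replicate 2 or 3, or 2i knockdown replicate 2, adjusted p 0.0502 to 0.0723). The call was also lost on log2 of normalised reads plus 1 (0.0928) and with voom (0.0604). It had 377, 402 and 3.21 normalised reads in serum controls and 1787, 771 and 261 after serum knockdown. In 2i it had 214, 69.0 and 30.5 in the control and 2337, 1085 and 838 in the knockdown, with no overlap, though not past the threshold in 2i alone (limma adjusted p = 0.0767).

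Between media in control cells 1 of the 63 passed (1.59%), below the 3.62% of all genes, so the count is no result about the list. Zc3hav1 (ZAP), which binds CpG-rich viral RNA, was higher in 2i, with 318, 266.5 and 520 normalised reads in serum controls and 1120, 1671 and 1289 in 2i controls (log2 1.80 ± 0.31, limma adjusted p = 0.00483). None of the 63 passed with limma between media in knockdown cells, and voom called 0, while 15 (23.8%, against 18.5% of all genes) had an unadjusted p under 0.05.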

How the data were processed

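Total RNA of 12 libraries was depleted of ribosomal RNA and sequenced strand-specifically, per the labels' protocols. The authors deposited log2-scale variance-stabilised values for 26061 genes and 1217 repeat families. Trimming with Trim Galore 0.3.3, TopHat2 2.0.9, DESeq2 and mm9 are listed in the submitters' processing notes. Counter, annotation and use of strand were not given in the sources used here, so overlapping, antisense and near-identical genes are uncertain. Inverting the transformation gave whole reads, to within 0.01, for 100.0% of values. Tests used the deposited log2 values in limma 3.58.1 (R 4.3.3): the 12 libraries were fitted together with a mean for each group (8 residual degrees of freedom) and a variance trend, two-sided, with Benjamini-Hochberg adjustment over 14487 genes with a mean of at least 0.5 over 4.4522, the lowest value. Log2 changes on this scale understate changes of low genes. Folds against a group without reads are bounds, set at 3 reads over that group. With 1 to 3 reads no fold is given. Bounds cover counting error only. The script was tested on simulated data.

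The labels do not say whether replicates were separate cultures, and the p-values thus cover the spread of these libraries alone, which may be technical. Same-numbered serum libraries deviated together (correlations of 0.582, 0.234 and 0.51), so the numbers were taken to pair them. The reported tests nevertheless hold no replicate term, and the pairing entered only as an alternative. With the replicate block 0 members passed in serum, as without it, while 171 of all genes passed, against 94 as reported. Members named with tests were those passing any comparison and the 2 largest changes of each role in either knockdown comparison, and further members were named for description after their values were seen. The 39 genes, their roles and the other lists were chosen with earlier results of these data known. Alternatives were no filter, a mean at least 1 above the lowest value, median centring, quantile normalisation, log2 of normalised reads plus 1, voom on the recovered reads, only the libraries compared, no variance trend, array weights, replicate blocks and leaving out each library. Older symbols were matched through RefSeq synonyms. RefSeq promoter windows are on GRCm38.p6, not on the build of the deposited tables, and were used for sequence only. Figures were drawn with matplotlib 3.10.9.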

Additional observations from a re-analysis of the deposited data

How the results depend on the processing

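In serum 0 members passed under every alternative run, the replicate block included, as for the difference of the knockdown changes. In 2i, 4 members passed as reported, 2 with the stricter filter, which leaves Rtp4 and Mx2 untested, 2 with quantile normalisation, 1 with only the libraries compared and 2 to 5 without a library. Between media in control cells 3 passed, 6 with array weights and 1 to 4 without a library. Array weights called 1340 of all 14487 genes there, against 524 as reported. In knockdown cells 6 passed, 15 with array weights (12 higher and 3 lower) and 4 to 11 without a library. Array weights called 4910 of all genes there and the refit with 11 members called 1522, against 543 as reported. Averaged over media 4 passed, 2 with the stricter filter, 2 with quantile normalisation, 7 with array weights and 2 to 5 without a library. Array weights called 840 of all genes there, against 274 as reported.

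Outside the serum knockdown the replicate numbers are not shown to pair every library. In 2i same-numbered libraries had correlations of 0.456, 0.057 and 0.524, against −0.604 to 0.287 for unlike numbers. Between media they were 0.232, −0.177 and 0.219 in control cells (unlike numbers −0.331 to 0.195). In knockdown cells they were 0.497, 0.005 and 0.439 (unlike numbers −0.579 to 0.269). Replicates 1 and 3 thus lay above all pairs of unlike numbers, and replicate 2 within their range. With the replicate block the counts were 5 in 2i, 6 and 11 between media in control and knockdown cells, and 7 averaged over media, and with the replicate block within medium 6 in 2i and 7 averaged. In the same order, the block called 321, 1351, 1583 and 494 of all genes, and the block within medium 425 and 630. The block within medium was not run between media, and the fit on only the libraries compared does not apply to the difference or the average.

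For single genes, 1745 of 1880 alternatives over 85 results kept direction and side of the threshold, 71 lost the call, 53 gained it and 11 turned the sign. Leaving out a library turned the sign of Eif2ak2 in serum (−0.243 to 0.0545, above 0 without serum control replicate 1) and in 2i (−0.0148 to 0.516, below 0 without 2i knockdown replicate 1), Usp18 in serum (−0.3516 to 0.1005, without serum control replicate 2), Irf1 in serum (−0.202 to 0.843, without serum knockdown replicate 2) and Adar in 2i (−0.182 to 0.258, without 2i control replicate 1 or 3 or 2i knockdown replicate 1). Adar in 2i was also −0.0212 with median centring, −0.0122 with quantile normalisation and −0.263 with array weights, and Zbp1 in 2i was −0.0542 with array weights. None of these 11 had passed, and the cause was not tested. Ube2l6 in 2i kept its call in all 23 alternatives, Rtp4 in 21 of 22, Bst2 in 15 of 23 and Mx2 in 8 of 22. Rtp4 lost it with only the libraries compared, where the limma adjusted p was 0.0835 (0.149 for Bst2 and 0.23 for Mx2). Rtp4 had 0 reads outside the 2i knockdown, and the reported fit takes its spread from those groups too. Ifi27 in 2i passed with array weights (adjusted p = 0.00271) and both blocks (0.00852 and 0.00329), and Mavs in 2i with array weights (0.026). Scaling moved the median of all genes by under 0.1. Over all genes the counts ranged from 37 to 272 in serum (94 as reported), 88 to 837 in 2i (184), 171 to 1351 (524) and 144 to 4910 (543) between media, and 210 to 840 averaged (274). Depth limits the 12 untested members, each with at most 67 reads in all.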
